A study of Caenorhabditis elegans with 2 samples.

Results

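The intronic peaks described here are the places inside protein-coding genes, away from annotated gene starts, where an eGFP fusion of the C. elegans protein C16A3.4 (ZNF-622) was found on autosomal chromatin. They were chosen from the thresholded peak list by annotation alone. The summit, the position of highest enrichment, lay on an autosome and more than 200 bp from any tRNA gene. Around each protein-coding gene's annotated 5′ end a promoter window was drawn that reached 1000 bp upstream and 200 bp downstream. The summit lay outside all of these windows, inside a protein-coding gene and in no protein-coding exon. Of the thresholded peaks, 359 met this rule (11.1% of the list) and 2861 did not. Of the other peaks, 972 lay in the promoter window of 1 protein-coding gene, 714 in windows of several genes, 380 between genes and 584 on the X chromosome.

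The samples formed 1 group of 2 biological replicates of chromatin immunoprecipitation followed by sequencing (ChIP-seq) from whole L1 larvae, the first larval stage, of pooled male and female animals. Both came from strain OP345, with the genotype unc-119(ed3) III; wgIs345, in which wgIs345 is the inserted transgene that carries the tagged C16A3.4 beside the animals' own gene. No untagged or untreated group was part of the series, and the control used in peak calling was not analysed here. Cells of the whole animal were pooled, so a weak peak in all cells and a strong peak in few cells cannot be told apart. With 1 group of 2 samples no test over samples exists. Differences between classes of peaks are therefore given as descriptions, with both replicates' own values as the spread and Wilson 95% intervals that cover counting error only. Depth per sample is unknown, because the lists hold no read counts.

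ZNF-622 is a C2H2 zinc finger protein. Its relatives in yeast and human are known for helping large ribosomal subunits to mature, not as classical transcription factors. Introns of worm genes can hold internal promoters of shorter transcripts, enhancer-like elements and whole genes for small RNAs. These include snoRNAs, which guide modification of other RNAs, and microRNAs (miRNAs), which repress messenger RNAs.

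The sequences around the strongest summits are shown because some of them hold words that recur at other intronic summits and some hold none of these. Each line gives the bases within 50 bp of the summit to each side, on the plus strand of WBcel235 (ce11). Capitals mark matches, on either strand, to the word GAGACGCAG or to any of the 5 words of 6 bases whose share at summits stood most above their share in windows shifted by 500 bp. These are GAGAGA, 3 words that overlap it and are given with their counts further on, and CGTCTC. The host genes are, in order of falling peak signal, scc-2, a loader of the cohesin ring, Y111B2A.12, nhr-19, a nuclear hormone receptor, epg-9, an autophagy protein, drap-1, a transcriptional corepressor subunit, dhc-4, a dynein heavy chain, zip-2, a bZIP transcription factor, and W06H8.6.
scc-2, chrII:255318-255418: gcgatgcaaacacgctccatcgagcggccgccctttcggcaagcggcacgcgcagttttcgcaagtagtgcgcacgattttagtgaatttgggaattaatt
Y111B2A.12, chrIII:12612633-12612733: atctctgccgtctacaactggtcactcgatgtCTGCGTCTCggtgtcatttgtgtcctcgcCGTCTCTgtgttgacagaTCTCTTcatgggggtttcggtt
nhr-19, chrII:9603540-9603640: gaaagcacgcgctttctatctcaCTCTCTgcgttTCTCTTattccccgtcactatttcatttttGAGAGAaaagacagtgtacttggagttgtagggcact
epg-9, chrIV:2602125-2602225: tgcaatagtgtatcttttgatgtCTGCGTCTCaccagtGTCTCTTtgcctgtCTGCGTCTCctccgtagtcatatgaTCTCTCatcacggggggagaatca
drap-1, chrV:9731169-9731269: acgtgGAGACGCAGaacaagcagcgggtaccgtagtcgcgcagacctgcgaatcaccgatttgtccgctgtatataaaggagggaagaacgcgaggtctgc
dhc-4, chrIII:10989600-10989700: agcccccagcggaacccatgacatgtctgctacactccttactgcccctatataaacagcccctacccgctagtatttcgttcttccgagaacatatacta
zip-2, chrIII:833812-833912: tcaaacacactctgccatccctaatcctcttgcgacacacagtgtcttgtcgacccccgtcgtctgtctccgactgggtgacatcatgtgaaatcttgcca
W06H8.6, chrV:6224567-6224667: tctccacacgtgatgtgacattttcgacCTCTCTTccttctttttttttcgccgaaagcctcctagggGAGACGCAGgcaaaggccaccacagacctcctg

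Of these 8 windows, 4 held GAGACGCAG or its reverse complement CTGCGTCTC (those of Y111B2A.12, epg-9, drap-1 and W06H8.6), and the epg-9 window held it at 2 places. The nhr-19 window held only the shorter words. The scc-2, dhc-4 and zip-2 windows held none of them, so the highest signal of all intronic peaks, in scc-2, stood on a window with no match.

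The signal is the authors' enrichment value of a peak, on a scale that is not stated. In the series list the scc-2 peak had a signal of 402, with 178 in replicate 1 and 222 in replicate 2. It lay in a first intron of 8369 bp, at −172 bp from the start of a shorter scc-2 transcript (negative positions are upstream). The Y111B2A.12 peak, in the fourth intron, had 323, with 132 in replicate 1 and 190 in replicate 2. These were the only intronic peaks among the 100 strongest of the whole list, at ranks 39 and 69.

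The nhr-19 peak had a signal of 279 (100.4 in replicate 1 and 181 in replicate 2) and the epg-9 peak 268 (97.5 and 170 in the same order). The zip-2 peak had 234.2, with 83.2 and 145, and lay at −226 bp from an alternative start. Both replicates had a summit within 100 bp at each of these, and replicate 2 was higher at each. The drap-1 peak had 261 in the series list and 200 in replicate 2, while the nearest replicate 1 summit lay 198 bp away. At W06H8.6, 2 intronic peaks stood 203 bp apart. The stronger had 233 in the series list and 149 in replicate 2, and the weaker 75.8 and 25.6. A single replicate 1 summit, with 99.6, lay between them, 108 bp from the stronger and 95 bp from the weaker, so matching within 100 bp gave it to the weaker peak only.

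The remaining 8 of the 15 strongest intronic peaks had signals from 190 to 252. They lay in dhc-4 (252), nurf-1 (232), a subunit of the NURF chromatin remodelling complex, miz-1 (231), haf-9 (229), a transporter of gut granules, T24B8.3 (225), Y43F8B.2 (221), zfp-1 (199), a chromatin protein related to human AF10, and rpl-19 (190), a protein of the large ribosomal subunit. All of these peaks had a summit of both replicates within 100 bp. Replicate 1 ranged from 58.6 at T24B8.3 to 112.2 at haf-9, and replicate 2 from 118.6 at haf-9 to 175 at T24B8.3. No value of replicate 1 among them reached the lowest value of replicate 2. Among the 15, 8 were in the window of an alternative start and 3 at a small RNA gene, with nurf-1 in both.

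Intronic peaks were weaker than promoter peaks and about as strong as intergenic ones. Their signal ranged from 48.5 to 402, with a median of 72.5 and quartiles of 56.6 and 107. The median was 87.8 for promoter peaks of 1 gene, 102.6 for those of several genes and 71.6 for intergenic peaks. Among the 1610 strongest peaks of the list were 138 intronic peaks (38.4%), against 52.2% and 64.6% of the promoter classes and 36.1% of intergenic peaks. No test was made, since all classes come from the same 2 libraries.

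Most intronic peaks had a summit of both replicates nearby. The authors set the list with a measure of agreement between replicates, so a high share is in part a condition of being listed, for every class. A summit of each replicate lay within 100 bp of 317 of the 359 (88.3%, interval 84.6 to 91.2), against 93% of all thresholded peaks and 88.4% of intergenic peaks. A replicate 2 summit matched 353 of them and a replicate 1 summit 322. Restricted to the strongest peaks of each replicate, as many as the series list holds, both replicates matched 198 intronic peaks (55.2%, interval 49.98 to 60.2), against 67.7% of all thresholded peaks and 52.4% of intergenic peaks. Of the 37 peaks without a replicate 1 match, 25 had a replicate 1 summit within 200 bp, and their median signal was 62.1.

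At the 317 peaks matched in both, replicate 2 had the higher signal at 263 (83.0%). The log2 ratio of replicate 2 over replicate 1 had a median of 0.61 with quartiles of 0.20 and 1.12, and over all matched thresholded peaks the median was 0.54. Spearman's rank correlation between the replicates was 0.51 over these peaks and 0.62 over all 2996 matched peaks. These points share the same 2 libraries and control, so the correlations are descriptions. Whether the libraries differed in depth is not known from the lists.

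**Figure D1:**
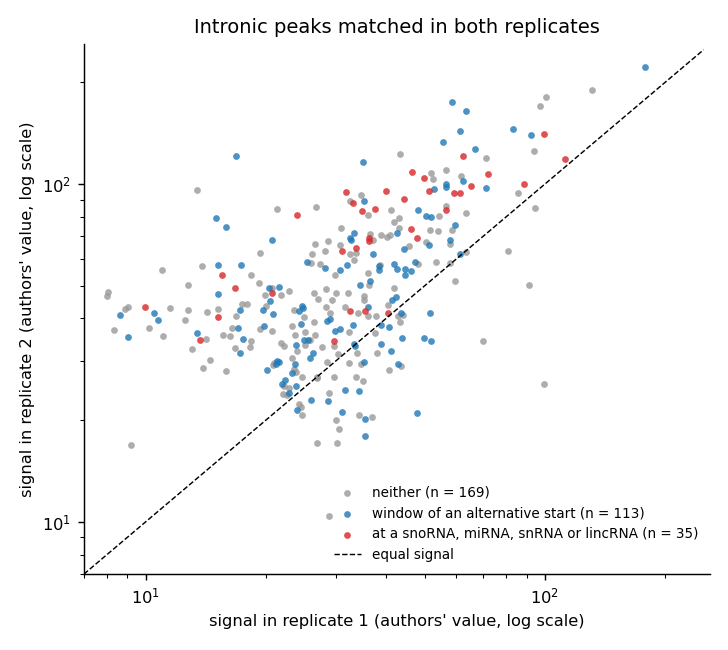
Signal of the 317 intronic peaks matched in both replicates, replicate 1 on the horizontal and replicate 2 on the vertical axis (both log scales, authors' values). Each point is 1 peak, coloured by its place, and 263 of the points lie above the dashed line of equal signal.

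The peaks that differed most between replicates were scattered over hosts. The highest log2 ratios of replicate 2 over replicate 1 were 2.85 at T28B11.1, 2.83 at K11D2.4, 2.58 at vhp-1, a MAP kinase phosphatase, 2.55 at psd-1, a phosphatidylserine decarboxylase, and 2.41 at arf-1, a small GTPase of vesicle traffic. Replicate 1 signal at these ranged from 7.98 at psd-1 to 16.8 at T28B11.1, and replicate 2 signal from 46.6 at psd-1 to 121 at T28B11.1. Matching used each replicate's full list of 30000 peaks, which includes background. In replicate 1 the matched summit had rank 5167 at T28B11.1 and rank 27058 at vhp-1. The lowest ratios were −1.96 at the weaker W06H8.6 peak, whose replicate 1 summit was the one shared with its neighbour, −1.47 at jun-1, an AP-1 family factor, −1.19 at strl-1, −1.02 at Y56A3A.7 and −0.98 at T22F3.2. At jun-1 the values were 28.8 in replicate 1 and 10.4 in replicate 2.

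Intron sequence that met the rule held fewer peaks per length than promoters and more than exons. The eligible introns covered 25.3 Mb of the autosomes. They held 14.2 peaks per Mb in the series list, 14.97 in the strongest peaks of replicate 1 and 14.6 in those of replicate 2. Promoter windows held 91.8, 92.2 and 87.8 in the same order, intergenic sequence 23.1, 22.5 and 25.3, and exons 2.74, 3.93 and 2.94. The spread between replicates was small beside the differences between these kinds of sequence. Per chromosome, 62 of the intronic peaks were on I, 79 on II, 79 on III, 74 on IV and 65 on V. With each chromosome cut into 3 equal parts, the middle one held 24.8 per Mb and the outer ones 10.2, with 26.3 and 25.2 in the middle in replicates 1 and 2 and 10.7 and 10.5 in the outer parts.

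By order and length, peaks were denser in first than in later introns and denser in long than in short introns. First introns held 25.5 peaks per Mb (26.2 in replicate 1 and 26.6 in replicate 2), against 8.96 in later introns (9.76 and 9.01). These densities count an intron as first if it is so in a transcript of any gene there, which holds for 204 peaks (56.8%) and 31.7% of eligible sequence. By the transcripts of the assigned host gene alone, 203 peaks (56.5%, interval 51.4 to 61.6) were in a first intron. Density rose with the length of the intron, from 7.35 per Mb in introns up to 500 bp to 9.84 between 500 and 2000 bp, 21.1 up to 5000 bp and 36.1 in longer ones. The same order held in each replicate. The intron holding the summit had a median length of 2523 bp, with a range of 108 to 20948 bp, whereas the median over eligible intron sequence, weighted by length, was 977 bp.

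First and later introns differed within each length class too. In introns up to 500 bp the densities were 13.3 per Mb in first and 5.91 in later introns, and between 500 and 2000 bp 19.3 and 6.11. From there up to 5000 bp they were 30.2 and 14.5, and in longer introns 41.2 and 29.2. In both replicates the first introns were denser in every class. In these longest introns the replicates gave 38.3 and 45.7 in first and 32.3 in later introns in each replicate, so the gap there was 5.97 per Mb in replicate 1 and 13.4 in replicate 2.

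**Figure D2:**
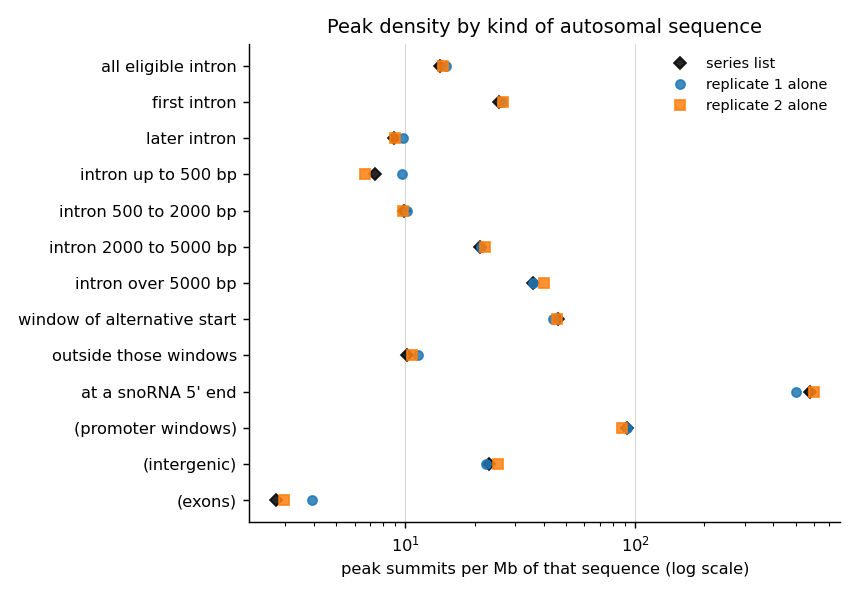
Peak summits per Mb (log scale) in kinds of autosomal sequence, for the series list and for the strongest peaks of each replicate alone. Intron classes are above and other sequence, in brackets, below, and first introns (25.5 per Mb) lie above later introns (8.96 per Mb) in all 3 lists.

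Many of the intronic peaks lay in the window around another annotated transcript start of the same gene. The rule used 1 annotated 5′ end per gene, the outermost. Counting the window from 1000 bp upstream to 200 bp downstream of every other annotated transcript start of the host, 130 intronic peaks (36.2%, interval 31.4 to 41.3) lay in such a window. These windows covered 11.1% of eligible intron sequence, which gives 46.2 peaks per Mb inside them (44.1 in replicate 1 and 45.8 in replicate 2), against 10.2 outside (11.3 and 10.7). Genes with several annotated starts held 307 of the 359 peaks, in 224 hosts. Over the eligible introns of all 4550 such genes, with or without a peak, this was 21.2 per Mb. Genes with a single start held 52 peaks in 51 hosts, which was 4.59 per Mb over the eligible introns of all 10505 such genes.

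Summits near alternative starts were spread over the whole upstream side of the window. Their position relative to the nearest alternative start had a median of −299.5 bp and quartiles of −608.5 and −174 bp. All but 4 of the 130 (96.9%) were upstream, which the choice of peaks largely fixes, since it leaves out summits in exons and the window reaches farther upstream than downstream. Peaks in the promoter window of 1 gene had a median of −237 bp with quartiles of −400 and −130 bp. Within 500 bp upstream lay 63.1% of the summits at alternative starts and 77.3% of those at gene starts. Annotated starts of worm transcripts can lie away from the place where transcription begins, because many messages are trans-spliced. The 4 summits downstream lay at most 147 bp from the start.

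The strongest peaks at alternative starts were those of scc-2, drap-1 and zip-2 given above. Others were at miz-1, at −734 bp from the start, T24B8.3 at −430 bp, rpl-19 at −253 bp, zfp-1 at −690 bp and nurf-1 at −276 bp. The median signal of the 130 was 73, close to that of the remaining peaks in first introns (68.04, 110 peaks) and in later introns (66.8, 83 peaks). By signal, then, the peaks at alternative starts did not stand apart from other intronic peaks.

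A smaller group stood at genes for small RNAs, or for a long intergenic RNA at 1 peak, and had higher signal. This group was formed after its values had been seen. All of these genes are called small RNA genes here. Counting from 300 bp upstream to 200 bp downstream of the 5′ end of a snoRNA, miRNA, snRNA or long intergenic RNA gene, 43 intronic peaks (11.98%) were found. The density there was 417 per Mb in the series list, 359 in replicate 1 and 407 in replicate 2. Their median signal was 120.0, against 72.5 for all intronic peaks. Both replicates matched 41 of the 43. Intron sequence that was neither in a window of an alternative start nor near a small RNA gene held 8.61 peaks per Mb (9.95 in replicate 1 and 9.10 in replicate 2).

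The snoRNA genes made up most of this group. At 30 intronic peaks the nearest such gene was a snoRNA, at a density of 579 per Mb (502 in replicate 1 and 598 in replicate 2). Of the 130 autosomal snoRNA genes whose 5′ end lay in eligible intron, 29 had a peak (22.3%, interval 16 to 30.2). Their summits were tightly placed, with a median of −30 bp from the snoRNA 5′ end, quartiles of −47 and −15.2 bp, and 27 of the 30 upstream. At 21 of the 30 the snoRNA was on the same strand as its host gene.

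The strongest snoRNA peak was in haf-9, at −30 bp from ZK484.9, with a signal of 229 (112.2 in replicate 1 and 118.6 in replicate 2). The peak at −35 bp from Y38F2AR.14, in Y38F2AR.12, had 186, with 62.4 and 121. In pxn-1, a peroxidasin, the peak at −25 bp from ZK994.7 had 184, with 88.8 and 99.9. In mix-1, a condensin subunit, the peak at −28 bp from M106.6 had 180, with 71.9 and 107. These peaks were higher in replicate 2, as intronic peaks were in general. The weakest was in mltn-9, at −53 bp from F19H8.6, with 48.6 in the series list, 13.6 in replicate 1 and 34.6 in replicate 2. Peaks 106 bp downstream of the B0334.12 5′ end in twk-5, a potassium channel gene, and 84 bp downstream of that of F07A11.15 in din-1 lay farthest to the other side. The word GAGAGA was at 20% of the snoRNA summits and GAGACGCAG at 3.33%, against 37.9% and 10.9% of all intronic summits.

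Other small RNA genes were fewer. The strongest of 5 peaks at snRNA genes was the dhc-4 peak, at −29 bp from WBGene00014543, with 252 in the series list, 99.4 in replicate 1 and 141 in replicate 2. That snRNA gene and those at the peaks in mpc-1 (80.4) and C28A5.6 (51.1) carry 1 shared symbol, R07E5.16, so they are given by gene and by host. Such copies can share reads. The others were at sup-6 in F58G1.7 (103.3) and at F32B5.9 in cpz-1 (66.2).

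Of 67 miRNA genes with a 5′ end in eligible intron, 7 had a peak within the window (10.4%, interval 5.15 to 20.03). The peak at −147 bp from cel-mir-5595, in nurf-1, had the highest signal, 232. It lay in the window of an alternative start of its host as well, and that miRNA is on the strand opposite to nurf-1. Those at mir-2214 in B0361.11 (138), cel-mir-229 in gcn-1 (132) and cel-mir-90 in K01F9.2 (125) followed. Lower signals stood at cel-mir-4929 in E01G4.3 (94.9), cel-mir-58a in Y67D8A.2 (70.2) and cel-mir-71 in ppfr-1 (64.2). At the cel-mir-229, cel-mir-90, cel-mir-4929, cel-mir-58a and cel-mir-71 genes the summit was at −277 to −238 bp, and at mir-2214 it was at −51 bp. A peak 4 bp inside the 5′ end of linc-143 lay in the first intron of daf-2, the insulin receptor gene, with a signal of 99.2, 33.7 in replicate 1 and 64.6 in replicate 2.

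**Figure D3:**
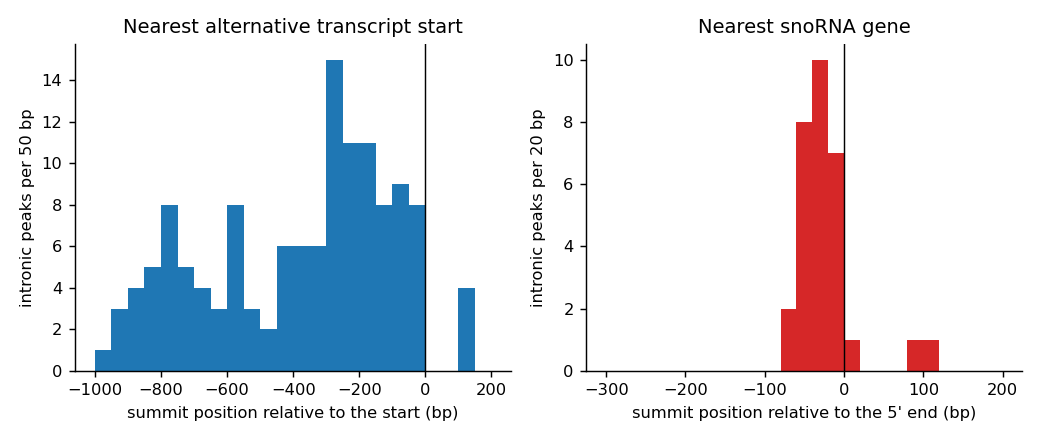
Position of intronic summits relative to the nearest alternative transcript start of the host (left, 130 peaks, 50-bp bins) and to the nearest snoRNA 5′ end (right, 30 peaks, 20-bp bins). The vertical line is the start, negative values are upstream, and the snoRNA summits gather around −30 bp while those at alternative starts spread over the whole window upstream.

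Independently of the distance to a start, 38 intronic summits (10.6%, interval 7.81 to 14.2) lay inside an annotated non-coding gene on either strand. The density there was 75.3 per Mb, 59.5 in replicate 1 and 71.4 in replicate 2. Most of them, 24, were in genes that the annotation calls only ncRNA. The strongest were the drap-1 and haf-9 peaks and the catp-8 peak, which had 157 in the series list, 49.7 in replicate 1 and 104.4 in replicate 2, at −48 bp from the snoRNA gene C10C6.8.

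The 359 peaks fell in 275 host genes. A single peak was in 231 hosts, while 44 hosts held several, 128 peaks in all. A promoter peak of their own was carried by 59 hosts (21.5%), against 1981 of the 15055 autosomal protein-coding genes with eligible intron (13.2%). Neither znf-622, the gene of the tagged protein, nor unc-119 held an intronic peak.

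T28B11.1 held the most, 7 peaks, all in 1 first intron of 17091 bp. Their signals were 53.9, 53.9, 50.4, 164, 67.0, 99.1 and 140 in the direction of transcription, and 6 were matched in both replicates. The strongest had 51.8 in replicate 1 and 108 in replicate 2. The last lay at −700 bp from an alternative start, with 16.8 and 121. Next came ppfr-1, a regulatory subunit of protein phosphatase 4, with 6 peaks (55.9 to 186), and vhp-1 with 6 (50.9 to 142). All 6 of ppfr-1 were outside windows of alternative starts, while 2 of the 6 in vhp-1 were inside one.

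Of these hosts with 5 or more peaks, zfp-1 had the highest median, 153, over 5 peaks from 75.2 to 199 that were all matched in both replicates. Of them 4 held GAGAGA. The 5 peaks of pkg-2, a cGMP-dependent protein kinase, ranged from 61.6 to 99.98, held neither GAGAGA nor CGTCTC, and 3 were matched in both replicates. So hosts with similar numbers of peaks differed in signal and in the words at their summits.

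Hosts with 4 peaks were nhr-19 (54.6 to 279), aakg-1, a subunit of the energy sensor AMPK (53.2 to 176), daf-5, a Sno/Ski family protein of dauer TGF-β signalling (54.3 to 170), and fkh-7, a forkhead factor (49.96 to 121). All 4 peaks of nhr-19 and of daf-5 were in 1 first intron each. Hosts with 3 peaks were Y111B2A.12, Y43F8B.2, mnk-1, pqn-41, ccch-1, let-526, hlh-30, let-607, ifbp-1, dnj-20, din-1, gei-4 and egl-44. Their medians ranged from 56.4 at gei-4 to 164 at mnk-1, a kinase of the MAP kinase pathway. The 3 peaks of hlh-30, the worm TFEB gene, had 102.5, 121 and 125.995, all in first introns, all with GAGAGA and all matched in both replicates. Those of let-526, a SWI/SNF chromatin remodelling subunit, had 110, 125 and 131.

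**Figure D4:**
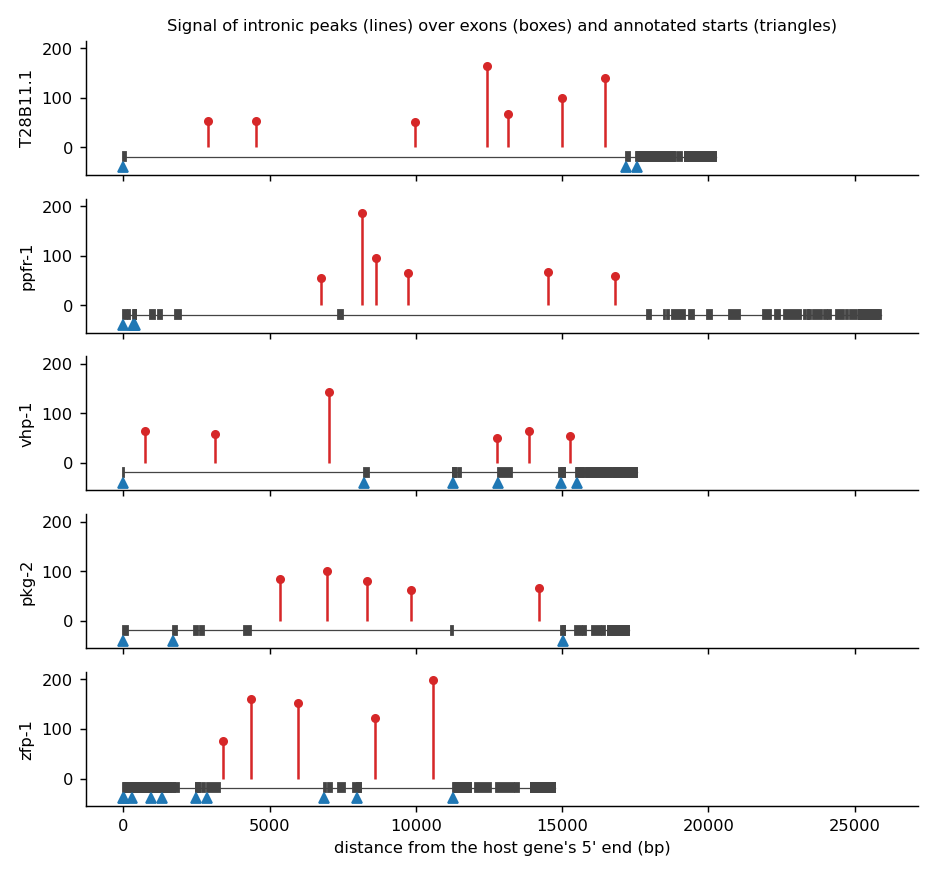
Intronic peaks of the 5 hosts with 5 or more, by distance in bp from the host's 5′ end, with the height giving the signal. Boxes are annotated exons and triangles annotated transcript starts, and all 7 peaks of T28B11.1 stand over a single intron of 17091 bp.

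Hosts were also counted by gene lists made from gene symbols. Over all autosomal protein-coding genes with eligible intron, 275 of 15055 (1.83%) were hosts, at 13.9 peaks per Mb counted per gene. Of transcription factor families other than homeobox and nuclear receptor genes, 14 of 122 genes were hosts (11.5%), with 22 peaks and 56.3 per Mb. The strongest in these were at zip-2 (234.2), daf-14, a SMAD of dauer signalling (132), hlh-30 (125.995) and fkh-7 (121). Of 243 nuclear hormone receptor genes 7 were hosts (2.88%), with 12 peaks and 36.7 per Mb, led by nhr-19 (279), nhr-31 (104.5), nhr-34 (74.5) and nhr-46 (68.5). None of the 71 genes on the homeobox list held an intronic peak.

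Signalling genes had 10 hosts (8.40%, 23.3 peaks per Mb), among them the MAP kinase genes mpk-2 (169) and mpk-1 (142), daf-2 (99.2) and let-363, the worm TOR kinase (78.5). RNA-binding genes had 5 of 84 (5.95%), led by lin-28, a regulator of developmental timing (155), larp-1 (145), rbm-34 (122.7) and alg-2, an Argonaute (85.6). The neuronal list had 8 hosts of 242 (3.31%) and 6.54 peaks per Mb, with a median of 3155 bp of eligible intron per gene against 693 bp over all genes. Its strongest were at twk-5 (155), unc-41 (90.1), unc-43, a CaM kinase (79.5), and rab-3 (76.1). The muscle list had 0 hosts of 44 and the ribosomal protein list 1 of 37 (rpl-19, 190). Collagens had 1 of 114 (col-72, 86.3) and chemoreceptors 2 of 1250 (srh-2, 94.7, and srt-52, 54.8). These counts describe lists of unequal intron length and have no test. The lists need not hold every gene of a kind, so a count of 0 holds for the list only.

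Bases around intronic summits were rich in G and C. Within 50 bp of the summit the median content was 46.5%, against 36.1% in windows 500 bp to each side of the same summits, and the summit was the richer at 302 of the 359 (84.1%). Promoter peaks of 1 gene had 45.5% and intergenic peaks 44.6%. Windows of the same length laid over all eligible introns had a median of 31.7%. In replicate 1 the median at its own intronic summits was 43.6%, and in replicate 2 47.5%. Summits at snoRNA genes were richer, at 57.4%.

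The rise in G and C was broader at intronic summits than at promoters. In the 25 bp just before the summit the mean was 49.2% at intronic, 49.5% at promoter and 46.4% at intergenic peaks. In the bin centred at −113 bp the means were 40.7%, 31.9% and 39.7% in the same order, and on the far side, in the bin from 100 to 125 bp after it, 39.9%, 32.5% and 39.4%. Promoter peaks thus had a dip close to the summit on both sides, where intronic peaks were still falling towards their surroundings. The intergenic curve reached its lowest mean, 31.6%, farther out, in the bin centred at −288 bp, and the lowest mean of the intronic curve was 35.3%. The classes differed in how many regions had the usual width of 344 bp. It was found at 94.7% of intronic, 79.1% of single-gene promoter and 96.8% of intergenic peaks. Whether the breadth of the curves depends on how exactly summits were placed was not tested.

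**Figure D5:**
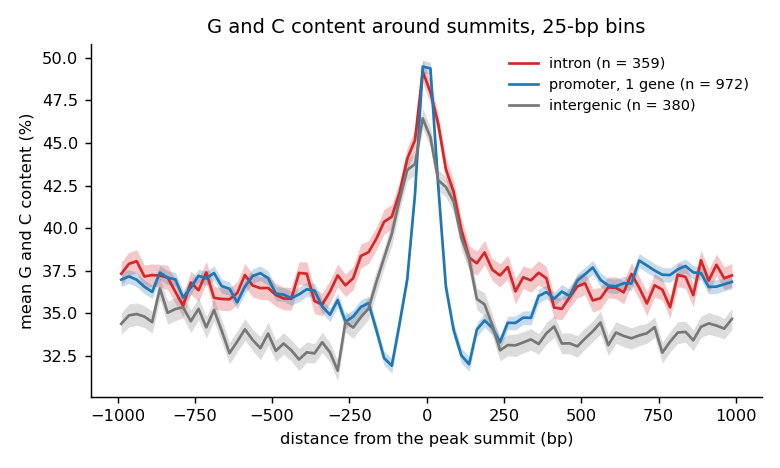
Mean G and C content in 25-bp bins by distance from the summit for intronic peaks (n = 359), promoter peaks of 1 gene (n = 972) and intergenic peaks (n = 380). Shaded bands are the standard error over peaks, which are not replicates, and the promoter curve falls to about 32% on both sides of the summit where the intronic curve stays near 40%.

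Few intronic peaks lay in recurring sequence. Over 50% of the 36-base words of a peak occurred elsewhere in the genome at 4 intronic peaks (1.11%), and 331 peaks held no such word.

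The words in capitals above were counted at every summit, on both strands, within 50 bp. GAGAGA stood at 136 of the 359 intronic summits (37.9%), against 8.64% of the shifted windows, 4.36% of windows laid over eligible introns and 8.99% of windows of the same length before all autosomal protein-coding 5′ ends. At promoter peaks of 1 gene it stood at 20.99%, of several genes at 16.7% and at intergenic peaks at 43.2%. Words that overlap it moved with it: AGAGAG stood at 29.8% of intronic summits and 6.55% of shifted windows, AGAGAC at 25.1% and 4.596%, and AAGAGA at 27.6% and 9.05%. At least 1 of the 5 words was at 212 intronic summits (59.05%), against 19.8% of shifted windows. The 5 words were chosen by their contrast between these same windows, so this difference in part restates the choice.

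The fifth word, CGTCTC, stood at 79 intronic summits (22.01%), against 2.79% of shifted windows, 17.4% and 13.3% of the promoter classes and 22.4% of intergenic peaks. GAGACGCAG, of which its reverse complement GAGACG is the start, stood at 39 (10.9%), against 0.557% of shifted windows and 0.598% of intron windows. It was looked for after it had been seen in these sequences. At promoter peaks of 1 gene it stood at 9.26%, of several genes at 6.58% and at intergenic peaks at 11.1%. Of the 15 strongest intronic peaks 6 held it, 4 of them among the windows printed above, and by signal 16.1% of the 180 stronger and 5.59% of the 179 weaker peaks. Since the word was noticed at strong summits, these shares partly restate how it was found. A match is a run of letters and does not show that a protein binds it.

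The replicates differed in how often their own intronic summits held the words. GAGAGA was at 26.4% of those of replicate 1 and 39.3% of those of replicate 2, CGTCTC at 13.5% and 23.3%, and GAGACGCAG at 6.86% and 11.7%. The words were chosen from the series list, which comes from the same libraries, so their presence in the replicates' own peaks is no independent support.

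Among summits with GAGAGA on 1 strand only, it read along the strand opposite to the host gene at 77 and along the host strand at 42, which is 64.7% opposite, against 57.4% of intron windows with the word. For CGTCTC the counts were 54 and 22 (71.1%, against 55.7% of intron windows), and for GAGACGCAG 30 and 8 (78.9%, against 55.3%). By place, GAGAGA stood at 43.1% of the summits at alternative starts, 47.3% of other first intron summits, 25.3% of other later intron summits and 19.4% of the remaining summits at small RNA genes. At the other end, words rich in A and T were fewer at summits. AAAATT stood at 12.5% of intronic summits and 41.2% of shifted windows, TAAAAA at 8.91% and 33.8%, and AAAAAT at 21.4% and 45.96%. Such words hold only A and T, of which the summit windows had less than the shifted windows. They were also chosen for this difference, and their shares were not compared at equal base content.

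Few intronic summits lay close to the edge of a promoter window. The intronic peak closest to a promoter window lay 4 bp outside that of har-1, in wht-3, with a signal of 131, and the next 8 bp outside that of mrps-28, in Y43F8C.7, with 100.4. Just inside a window, at 15 bp, lay the peaks of hrpk-1 (165) and set-3 (65.2), which the rule leaves out. Within 100 bp of a window lay 9 of the 359, and the median distance was 2333 bp. The rule was applied to the summit only, and 262 of the 359 peaks met it over their whole region. The width was 344 bp, the usual width of the list, at 340 of the peaks, whose summit is then the centre of the region. The other 19 were 94 to 212 bp wide, and 13 of them were among the 15 strongest.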

How the data were processed

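Peak lists of 2 ChIP-seq replicates of 1 group were used. Per the deposited notes, the authors called peaks and background on each replicate with a control (30000 peaks each), on both replicates together (21096 peaks), and thresholded these by irreproducible discovery rate (IDR), a measure of agreement in rank between replicates. The thresholded list has 3220 peaks, and all of them are the strongest pooled peaks. For the aligner and the peak caller, no name or setting was found (not given in the sources used here). Of each peak, the deposited signal value, scale not stated, was used to rank and describe peaks. The deposited −log10 q value was tied at 3.84 in all thresholded peaks and was not used further. Each replicate's signals come from its own list, so ratios between lists are on the authors' scales as deposited. Lists on ce10 were not used.

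Summits on ce11 were placed on WBcel235, the same assembly, with Ensembl release 115, in the order X, tRNA, promoter window, exon, intron, non-coding gene, intergenic. Introns were numbered in each host transcript holding the summit. Replicate summits were matched within 100 bp. The replicates' own densities used their 3220 strongest peaks. Counts of all 2080 words of 6 bases, each pooled with its reverse complement, were made in 101-bp windows at summits and shifted by 500 bp. The functions that place, match and compare peaks were tested on simulated data. Python 3.11.15, numpy 2.4.6, pandas 2.3.3 and statsmodels 0.14.6 were used.

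The peaks, the host lists and the measures were chosen with earlier results of these data known. Items were named by rule: the 15 strongest intronic peaks, hosts with 3 or more, the 3 strongest of each kind of place, the 5 highest and 5 lowest ratios between replicates, up to 4 hosts per host list, znf-622 and unc-119, and the 5 words most and 3 words least frequent at summits relative to shifted windows. The peaks at snoRNA, miRNA, snRNA and long intergenic RNA genes and GAGACGCAG were added after their values were seen. Alternatives changed the promoter window, the starts counted, the number of peaks, the matching distance, the use of summits and the replicate.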

Additional observations from a re-analysis of the deposited data

How the results depend on the processing

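Of 85 alternative values, 59 moved by less than the spread set for them and 26 by more. The values are counts, shares, medians and densities without a sign, so none could change direction. Counting every transcript start as a promoter left 229 intronic peaks, with a first intron share of 50.2%, an alternative start share of 0% by construction and a median intron length of 3573 bp. The 1610 strongest peaks of the list left 138 peaks, with a median signal of 121, 96.4% found in both replicates, a median intron of 1793 bp and 49.5% G and C. Doubling the list from the pooled peaks gave 948, with a median signal of 41.4, 71.1% in both replicates, 30.6% at alternative starts, 7.70% in non-coding genes and 42.6% G and C. Promoter windows of 2000 bp upstream to 500 bp downstream gave 31.4% at alternative starts and a median intron of 3332.5 bp. Requiring the whole peak region to be intronic left 262 peaks, with 29.8% at alternative starts and a median intron of 3725 bp. Matching within 50 bp gave 67.7% in both replicates and within 200 bp 96.7%. With 1 replicate left out, the intronic peaks were taken from the strongest peaks of the other replicate alone. Their median signal was 29.9 to 44.3, on that replicate's own scale, and their median G and C content 43.6% to 47.5%. A summit of both replicates lay nearby at 76.96% to 77.6% of them. Each such peak matches itself in its own list, so this share counts only matches in the other replicate. It is therefore not comparable with the 88.3% of the series list. Why these values moved was not tested. The densities without replicate 1 or 2 were added after seeing the data. No paired analysis was possible because the samples form 1 group. Depth is unknown, so the 37 peaks with no replicate 1 summit within 100 bp do not show that replicate 1 lacked enrichment there.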
